A study of Mus musculus with 12 samples.

Results

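The interaction of Blm loss and Recql loss was measured as 1 value per gene in fibroblasts of mouse embryos, connective tissue cells used in primary culture. On the log2 scale, the step from Blm knockout (KO) to double KO was taken, and the step from wild type (WT) to Recql KO was subtracted from it. The resulting value is 0 where the effects of the 2 knockouts add up, above 0 where the double KO lay higher than that sum, and below 0 where it lay lower. All 12 of the 12 libraries of the series enter it, and 14876 of the 24054 genes in the table had enough counts to be tested. Messenger RNA had been sequenced from cells of 4 genotypes, with 3 libraries each: WT, Blm-/- (Blm KO), Recql-/- (Recql KO) and Blm-/- Recql-/- (double KO). Every culture was kept in DMEM with 10% fetal bovine serum and antibiotics, at 37 degrees C with 5% CO2 and 3% O2, and no library had a drug treatment in its label. The alleles, the mouse strain, the age of the embryos and whether the libraries of 1 genotype came from separate embryos or cultures are not given in the sources used here. The p-values therefore measure the spread between these libraries, which for WT may be technical. In each KO genotype the libraries differed in transcripts of the sex chromosomes, as given below, and so did not all come from the same cells.

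BLM and RECQL1, the products of Blm and Recql, are RecQ helicases, enzymes that unwind DNA at stalled replication forks and at recombination intermediates. BLM acts with a topoisomerase and the RMI proteins to separate joined DNA molecules and is the protein missing in Bloom syndrome, while RECQL1 is known for restarting forks that have been reversed. The study's title concerns what cells suffer when both are missing, and an interaction value asks of each transcript whether the combined loss did more, or less, than the single losses would add up to.

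The labels were first set against the targeted genes. Blm, at chr7:80454993-80535148 in mm10, measured 21.9, 21.7 and 18.6 CPM (WT), 5.64, 3.18 and 3.58 CPM (Blm KO), 14.3, 16.4 and 16.1 CPM (labelled Recql KO) and 5.66, 6.99 and 3.85 CPM (labelled double KO). Every library whose label carries the Blm loss lay below every other library. Recql, at chr6:142350342-142387100, measured 25.6, 28.1 and 29.3 CPM (WT), 21.3, 24.1 and 21.9 CPM (Blm KO), 21.7, 24.2 and 29.8 CPM (labelled Recql KO) and 18.8, 35.6 and 24.7 CPM (labelled double KO). The 4 groups overlapped, so that the Recql transcript does not separate the libraries by label. Counts were summed over whole genes, so that an allele which leaves the rest of its transcript in place would not show. Every direction given below for Recql KO or double KO therefore rests on the labels. The interaction was 0.82 ± 0.33 (log2, SE; edgeR adjusted p = 0.132) for Blm and 0.37 ± 0.28 (log2, SE; edgeR adjusted p = 0.418) for Recql. Blm passed the threshold only without Blm KO library 1, with a value of 1.11.

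The libraries held 47758552 to 59296354 expected counts, so that 3 counts, the upper limit that a count of 0 allows, correspond to 0.0506 to 0.0628 CPM, counts scaled to a common library total, by counting error alone. All 10 fibroblast markers were detected, and their summed level was 20700 to 44400 CPM. On the first principal component the 3 libraries labelled Recql KO lay at 74.1 to 79.7 and the other 9 at -54.4 to -7.02. Y-linked transcripts were not balanced between the genotypes. The summed level of 4 Y-linked genes was 229 to 257 CPM in all WT libraries but above 100 CPM in 1 library of each other genotype, namely Blm KO library 1, Recql KO library 1 and double KO library 2. Blm KO library 1, for example, held Y-linked transcripts at 247 CPM and Xist at 11.7 CPM, where Blm KO libraries 2 and 3 held 1.39 and 3.44 CPM and 370 and 473 CPM. Recql KO library 2 held both Xist, the transcript of the silenced X chromosome, at 310 CPM and Y-linked transcripts at 28.7 CPM.

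The interaction was widespread. Of 14876 genes, 1554 were called, meaning an edgeR adjusted p under 0.05, which is 10.4% of those tested. Of these, 872 were higher in the double KO than the sum of the single effects (5.86% of genes tested) and 682 were lower (4.58%). The departure exceeded 2-fold for 819 of them, 546 higher and 273 lower. The median over all genes was 0.01 on the log2 scale. The count depended on the libraries used. It fell to 549 without Blm KO library 3, 648 without Recql KO library 2, 797 without Recql KO library 1, 880 without WT library 2, 938 without Recql KO library 3 and 1016 without WT library 3. With a covariate for the Y-linked level it was 820, and in the 6 libraries with high Y-linked levels, with 1 library in 3 of the genotypes, it was 5, of which 4 belonged to the 1554. In those 6 libraries 1553 of the 1554 genes kept the sign of their interaction. The 6 are among the 12 libraries by which the 1554 were called, so this agreement describes the calls and does not test them. Calls for 507 genes held in each of the 12 fits that leave out 1 library. Unless other libraries are named beside it, a single gene given below with a passing interaction test is one of these 507 and also passed with the Y-linked covariate.

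The 2 steps whose difference is the interaction gave unequal counts of called genes. Between WT and Recql KO, 4444 genes were called (29.9%), 2118 higher (14.2%) and 2326 lower (15.6%) in the libraries labelled Recql KO. Between Blm KO and double KO, the same step taken without Blm, 291 were called (1.96%), 139 higher (0.934%) and 152 lower (1.02%) in the double KO. At an unadjusted edgeR p under 0.05 the counts were 6271 and 3466. Over all genes the median absolute log2 change was 0.2905 and 0.202, so the gap in size was narrower than that in calls. These 2 comparisons share no library. Of the 4444 genes, 128 were also called in the same direction without Blm, which is 2.88% of the 4444 and 44% of the 291, and 31 were called in opposite directions. All 31 also had a called interaction. The count of such genes depended on single libraries and was 1 without Blm KO library 3 or double KO library 2, 8 without double KO library 1, 10 without Recql KO library 2, 15 to 18 without WT library 2, Recql KO library 1 or Recql KO library 3, 49 without double KO library 3, 55 without Blm KO library 1 and 0 in the 6 libraries with high Y-linked levels. Across the 14876 genes the 2 fold changes had a Pearson correlation of 0.232 and a Spearman correlation of 0.216, given as a description, since genes are not independent replicates. The plot of both fold changes shows most of the called genes spread along the horizontal axis and close to 0 on the vertical one.

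**Figure D1:**
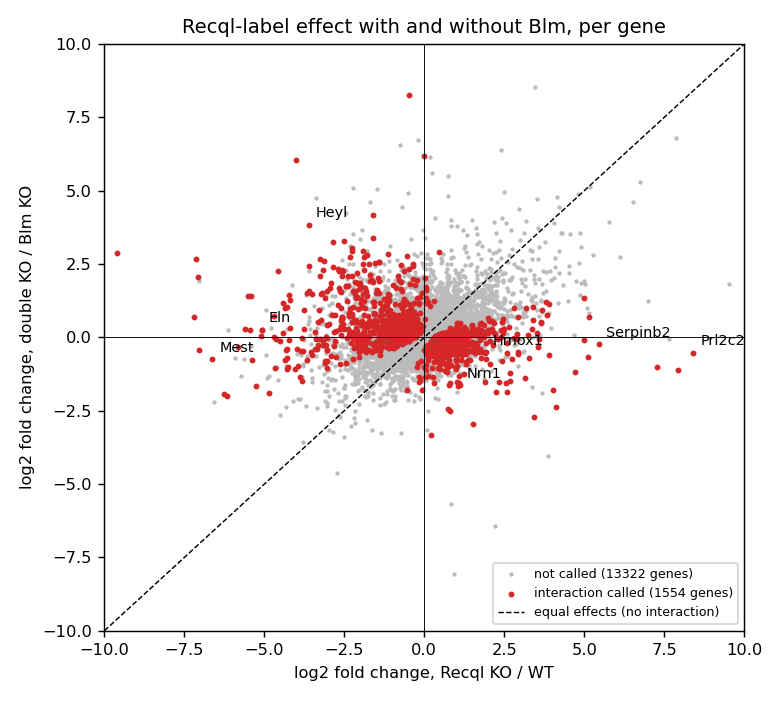
Each point is 1 of 14876 genes, with the log2 fold change of Recql KO over WT on the horizontal axis and that of double KO over Blm KO on the vertical axis. The 1554 genes with a called interaction are red, and the dashed line marks equal effects, on which the interaction is 0. Red points lie on both sides of 0 horizontally and mostly near 0 vertically, such as Eln and Prl2c2.

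Counts for the Blm label were likewise unequal with and without Recql. Between WT and Blm KO 112 genes were called (0.753%), and between Recql KO and double KO 3681 (24.7%), 1960 of them higher (13.2%) and 1721 lower (11.6%) in the double KO. The 56 genes called in the same direction in both are 50% of the 112 and 1.52% of the 3681, and 5 genes were called in opposite directions, all with a called interaction, and the count of such genes ran from 0 to 36 when 1 library was left out. At an unadjusted edgeR p under 0.05 the 2 steps of the Blm label gave 2806 and 5716 genes. The median absolute log2 changes over all genes were 0.1838 and 0.268. Directly between double KO and WT 18 genes were called (0.121%), 11 higher (0.0739%) and 7 lower (0.0471%). These counts moved with single libraries too. The Blm KO to double KO count was 9 without Blm KO library 3, 15 without double KO library 2, 89 without double KO library 1 and 117 without Recql KO library 2, and it was 585 without Blm KO library 2 and 520 without double KO library 3. The Blm KO to WT count was 31 without WT library 2, 34 without Blm KO library 3, 40 without WT library 1, 48 without Recql KO library 2, 55 without Recql KO library 3 and 56 without WT library 3 or Recql KO library 1. It was 237 without double KO library 3 and 572 without double KO library 2. The larger counts fell less. The Recql KO to WT count was 2692 without Recql KO library 2 and 2886 without Recql KO library 1, and the double KO to Recql KO count was 2157 and 2250 without the same libraries.

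For each called gene, the genotype whose mean lay farthest from the other 3 was then found. It was Recql KO for 1146 of the 1554 (73.7%), double KO for 156 (10%), WT for 146 (9.4%) and Blm KO for 106 (6.82%). Among all genes tested these shares were 50.5%, 12.1%, 11.7% and 25.7%. Among the 1146 genes, 519 were highest and 627 lowest under the Recql KO label, and in 1032 those 3 libraries did not overlap with the other 9. The test favours such genes, and the share without overlap among all genes tested is not given here. The double KO mean lay within 1.5-fold of the WT mean for 1026 of the 1146 (89.5%), beside 88% of all genes tested. The share of genes near WT in the double KO was thus about that of all genes and is not particular to the called ones. The interaction test itself uses these means, so the shares describe its calls and do not test them.

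**Figure D2:**
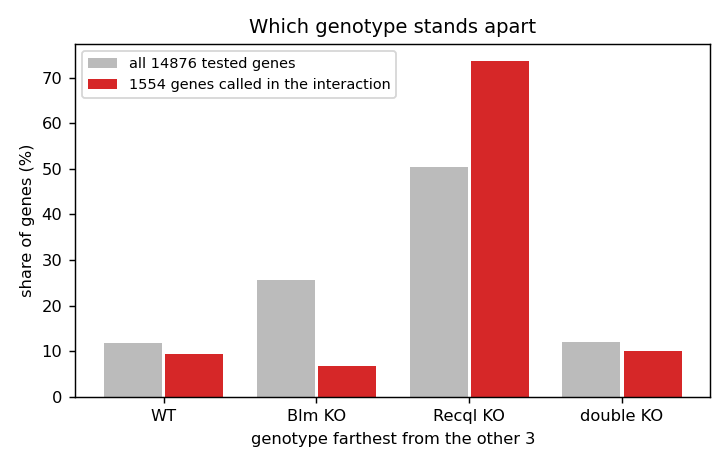
Bars give the share of genes, in percent, whose most distant genotype is the one named below the bar, for all 14876 tested genes (grey) and the 1554 with a called interaction (red). The Recql KO bar reaches 73.7% among called genes and 50.5% among all genes.

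Several extracellular matrix and cartilage genes had large positive interactions. Of those described here, only Col9a1 was among the 12 highest picked by the rule for named genes. Elastin, Eln, at chr5:134702595-134747368, encodes the protein of elastic fibres. It measured 51, 73.1 and 61.5 CPM (WT), 129.6, 81.4 and 157 CPM (Blm KO), 0.945, 1.34 and 3.26 CPM (labelled Recql KO) and 156, 97.9 and 188 CPM (labelled double KO). The 3 libraries labelled Recql KO lay far below the other 9, while every Blm KO and double KO library lay above every WT library. Adding the single effects predicts 3.67 CPM for the double KO, and the interaction was 5.34 ± 0.58 (log2, SE; edgeR adjusted p = 0.00266). It was also called in the 6 libraries with high Y-linked levels, at 5.61. Mfap4, a microfibril protein, had means of 37.8, 53.5, 6.18 and 70.2 CPM, in the order of WT, the single Blm and Recql KO and the double KO, and an interaction of 3.00 ± 0.56 (log2, SE; edgeR adjusted p = 0.0124). Fbn2, fibrillin of developing elastic tissue, had 326, 388, 39.9 and 287 CPM and an interaction of 2.59 ± 0.39 (log2, SE; edgeR adjusted p = 0.00578). The chain of type III collagen, Col3a1, measured 2761, 2681 and 2787 CPM (WT), 5337, 2618 and 4641 CPM (Blm KO), 551, 449 and 875 CPM (labelled Recql KO) and 3844, 3445 and 4660.00 CPM (labelled double KO). All double KO libraries exceeded all WT libraries, and the interaction was 2.06 ± 0.40 (log2, SE; edgeR adjusted p = 0.0133). Among 31 collagen and fibroblast matrix genes 8 were called, all positive (25.8%, beside 10.4% of all genes), with a median interaction of 0.36 over the 31. The count was 4 without Blm KO library 3 and 5 without WT library 2, WT library 3, Blm KO library 2, Recql KO library 1, Recql KO library 2, double KO library 1 or double KO library 2.

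The cartilage list went further in the same direction, with 9 of 16 tested members called, all positive (56.2%), and a median interaction of 2.99. Col2a1, at chr15:97975602-98004724, is the main fibrillar collagen of cartilage. It measured 499, 496 and 1275 CPM (WT), 547, 837 and 579 CPM (Blm KO), 59.98, 31.6 and 28.6 CPM (labelled Recql KO) and 895, 229 and 709.6 CPM (labelled double KO). WT, Blm KO and double KO overlapped, and the libraries labelled Recql KO were all lower. The expected double KO level was 34.6 CPM and the interaction 4.14 ± 0.75 (log2, SE; edgeR adjusted p = 0.0111). Col9a1, a collagen on the surface of those fibrils, measured 4.29, 9.48 and 9.14 CPM (WT), 8.86, 1.18 and 2.03 CPM (Blm KO), 0, 0.0344 and 0.123 CPM (labelled Recql KO) and 6.22, 7.69 and 5.72 CPM (labelled double KO). The 3 libraries labelled Recql KO lay at or near the detection floor, so that the size of its interaction, 7.89 ± 1.21 (log2, SE; edgeR adjusted p = 0.00601), depends on few counts. Matn3, a cartilage matrix protein, had an interaction of 3.02 ± 0.55 (log2, SE; edgeR adjusted p = 0.0111). With 1 library left out, 6 to 8 of these 9 were called, 6 of them in each of the 12 fits, and limma-voom called 5 of the 16. In bulk RNA, fewer cells of a type and less RNA per cell cannot be told apart.

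Among the other genes with large values were 3 imprinted ones, which were not counted as a group, and several signalling ligands. Mest, an imprinted gene expressed in embryonic mesenchyme, at chr6:30733506-30748466, measured 164, 103 and 651 CPM (WT), 289.7, 157 and 256 CPM (Blm KO), 2.8, 2.44 and 4.03 CPM (labelled Recql KO) and 214, 76 and 127 CPM (labelled double KO). WT library 3 was the highest of all, and the 3 libraries labelled Recql KO were lower than any other by more than an order of magnitude. The interaction of Mest was 5.88 ± 0.94 (log2, SE; edgeR adjusted p = 0.007). Igf2, the imprinted fetal growth factor, had means of 2215, 1824, 50.2 and 2149 CPM and an interaction of 5.70 ± 1.31 (log2, SE; edgeR adjusted p = 0.0243), and H19, the imprinted noncoding RNA beside it, had 5.49 ± 1.10 (log2, SE; edgeR adjusted p = 0.0155). The Igf2 call was lost without WT library 3, Blm KO library 3 or any library labelled Recql KO, and the H19 call without Blm KO library 3 (adjusted p = 0.0501). Hhip, which binds and restrains Hedgehog ligands, had an interaction of 5.61 ± 0.83 (log2, SE; edgeR adjusted p = 0.00567). Tgfb3, a ligand of the TGF-beta family, had 1.18 ± 0.24 (log2, SE; edgeR adjusted p = 0.0161), and Ereg, an EGF receptor ligand, had -1.83 ± 0.32 (log2, SE; edgeR adjusted p = 0.0097). Among 25 growth factors and their binding proteins 5 were called positive and 1 negative (24%, beside 10.4% of all genes). Of the 25, 13 had a value above 0 and 12 below, and the median was 0.01. DESeq2 called 13 of the 25. The edgeR count was 1 and 1 without Blm KO library 3, and 2 and 1 without WT library 3 or Recql KO library 2.

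The largest negative interactions were of secreted and signalling proteins that stood high in the libraries labelled Recql KO alone. Serpinb2, plasminogen activator inhibitor type 2, at chr1:107500892-107525600, measured 0.48, 0.242 and 0.341 CPM (WT), 0.271, 0.615 and 0.392 CPM (Blm KO), 10.9, 20.6 and 15.5 CPM (labelled Recql KO) and 0.264, 0.579 and 0.237 CPM (labelled double KO). All 9 other libraries lay under 1 CPM and overlapped. Adding the single effects predicts 18.9 CPM for the double KO, and the interaction was -5.69 ± 0.61 (log2, SE; edgeR adjusted p = 0.00231). The proliferin Prl2c2, a secreted prolactin relative, measured 0.296, 0.294 and 0.0569 CPM (WT), 0.102, 0.299 and 0.341 CPM (Blm KO), 33, 75.5 and 114 CPM (labelled Recql KO) and 0.434, 0.0351 and 0.0548 CPM (labelled double KO), with an interaction of -8.92 ± 1.25 (log2, SE; edgeR adjusted p = 0.00473). Prl2c2 belongs to a family of near-identical copies among which reads can be split, so its own level is uncertain. Tnfrsf9, a receptor of activated immune cells, had means of 0.158, 0.149, 5.08 and 0.14 CPM and an interaction of -5.07 ± 0.66 (log2, SE; edgeR adjusted p = 0.00397).

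Other members of this kind were expressed at high levels in every group. Csf1, the macrophage growth factor, measured 685, 562 and 532 CPM (WT), 410.4, 752 and 620.5 CPM (Blm KO), 1661, 1465 and 1386 CPM (labelled Recql KO) and 585, 456 and 496 CPM (labelled double KO). The double KO libraries overlapped with WT and with Blm KO, and the interaction was -1.56 ± 0.28 (log2, SE; edgeR adjusted p = 0.00974). Ptgs2, the inducible prostaglandin synthase, had an interaction of -1.32 ± 0.25 (log2, SE; edgeR adjusted p = 0.0133), and Timp1, an inhibitor of matrix proteases, had -0.86 ± 0.14 (log2, SE; edgeR adjusted p = 0.0067). Of 27 NF-kB and secreted inflammatory genes Csf1 and Ptgs2 were the 2 called, both negative (7.41%, below the 10.4% of all genes), and 23 had a value below 0, with a median of -0.88. Without WT library 1 the count was 10, all negative. Kcnn3, a calcium-activated potassium channel, and Chd5, a chromatin remodeller, also stood high in libraries labelled Recql KO alone, with interactions of -3.99 ± 0.49 (log2, SE; edgeR adjusted p = 0.00341) and -3.50 ± 0.32 (log2, SE; edgeR adjusted p = 0.0014).

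Targets of NRF2, the transcription factor that answers oxidative stress, were called below additivity only. Of 24 measured, 10 were called and all 10 were negative (41.7%), with a median of -0.54 over the 24. Of the 14 that were not called, 4 had positive values, namely Txn1, G6pdx and Tkt at 0.05 to 0.39 and Gsta3 at 1.66, the last at a mean level of only 0.318 CPM. Hmox1, heme oxygenase, at chr8:75093618-75100593, measured 77.8, 73.2 and 79.9 CPM (WT), 80.9, 122 and 105 CPM (Blm KO), 368, 283 and 213 CPM (labelled Recql KO) and 71.2, 52.9 and 90.05 CPM (labelled double KO). The libraries labelled Recql KO were the 3 highest, and the double KO libraries overlapped with WT and with Blm KO. The expected double KO level was 383 CPM and the interaction -2.42 ± 0.32 (log2, SE; edgeR adjusted p = 0.0043), also called in the 6 libraries with high Y-linked levels, at -2.89. Nqo1, a quinone reductase, measured 16.2, 22.9 and 22.7 CPM (WT), 10.2, 20.5 and 10.9 CPM (Blm KO), 76, 84 and 98.8 CPM (labelled Recql KO) and 12.7, 13.6 and 12.1 CPM (labelled double KO), with the double KO libraries below every WT library. Its interaction was -2.18 ± 0.35 (log2, SE; edgeR adjusted p = 0.00689). Gclc, the catalytic subunit of the enzyme that begins glutathione synthesis, had an interaction of -1.09 ± 0.15 (log2, SE; edgeR adjusted p = 0.00462), and Srxn1, which repairs oxidised peroxiredoxins, had -0.99 ± 0.13 (log2, SE; edgeR adjusted p = 0.00424). With 1 library left out there were 8 to 11 calls, all negative, and with the Y-linked covariate 8.

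Cell cycle inhibitors split. Cdkn1b, which encodes the CDK inhibitor p27, at chr6:134920401-134925525, measured 73, 58.5 and 59.8 CPM (WT), 70.3, 61.9 and 65.2 CPM (Blm KO), 18.5, 19.5 and 23.8 CPM (labelled Recql KO) and 45, 46.3 and 48.2 CPM (labelled double KO). The double KO libraries lay between the Recql KO libraries and the rest, without overlap, and the interaction was 1.13 ± 0.16 (log2, SE; edgeR adjusted p = 0.00454). Cdkn3, a phosphatase that acts on cyclin-dependent kinases, had 2.08 ± 0.25 (log2, SE; edgeR adjusted p = 0.0033). Cdkn1a, which encodes the p53-induced inhibitor p21, measured 301, 347 and 362 CPM (WT), 328, 449 and 438 CPM (Blm KO), 708, 617 and 608 CPM (labelled Recql KO) and 481, 374 and 524 CPM (labelled double KO), and its interaction was -0.75 ± 0.21 (log2, SE; edgeR adjusted p = 0.0472). Cdkn2a, which encodes p16 and ARF, had means of 17.3, 26.3, 41.5 and 21.5 CPM and an interaction of -1.55 ± 0.38 (log2, SE; edgeR adjusted p = 0.0317). These 2 calls rest on single libraries. The Cdkn1a call held only in the fits without Blm KO library 1 or without double KO library 3, and the Cdkn2a call in those and in the fit without double KO library 1. Over the 12 such fits Cdkn1a ranged from -0.88 to -0.62 and Cdkn2a from -1.81 to -1.26.

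Among 29 p53 targets 3 were called, all negative (10.3%, which is near the 10.4% of all genes), with a median of -0.43. Mdm2, the ligase that restrains p53, measured 346, 285 and 299.5 CPM (WT), 209.9, 289 and 259 CPM (Blm KO), 755, 717 and 659 CPM (labelled Recql KO) and 319, 273 and 324 CPM (labelled double KO). The double KO libraries overlapped with WT, and all libraries labelled Recql KO were higher. The interaction of Mdm2 was -0.92 ± 0.18 (log2, SE; edgeR adjusted p = 0.0133), and that of Plk2, a p53-responsive kinase, was -0.62 ± 0.13 (log2, SE; edgeR adjusted p = 0.0192). The p53 transcript itself, Trp53, had an interaction of 0.03 ± 0.11 (log2, SE; edgeR adjusted p = 0.885). Without Blm KO library 1 the count of p53 targets was 5, and without double KO library 3 it was 6.

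**Figure D3:**
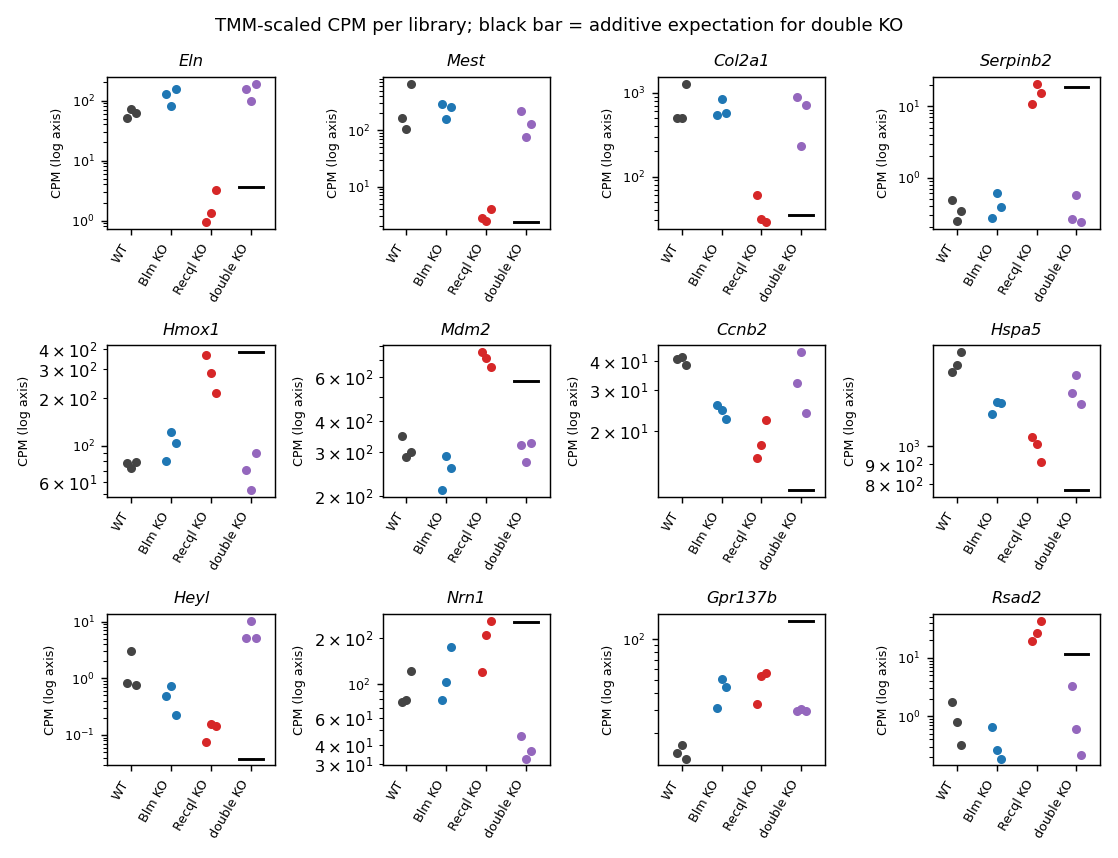
Points give the level of 12 genes in each of the 12 libraries, in TMM-scaled CPM on a log axis, grouped by label, and the black bar marks the double KO level that adding the single effects on the log2 scale would give. For Eln, Mest and Col2a1 the double KO points lie above the bar, and for Serpinb2, Hmox1 and Mdm2 they lie below it, and they overlap with the WT points except for Eln, where they lie above all of these.

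Genes of G2 phase and mitosis lay above additivity. Of 32 measured, 25 were called, all positive (78.1%), and all 32 had a value above 0, with a median of 1.24. Many promoters of this list carry the CCAAT box and fewer the CHR, sequence elements known from cell cycle genes. Because members of this list moved together, the promoters of Ccnb2 and Cdc20 are shown here. They are the 120 bases up to the transcript start, read in the direction of transcription, from RefSeq on GRCm38.p6, with Ccnb2 at chr9:70421555-70421674 on the minus strand and Cdc20 at chr4:118437344-118437463 on the minus strand. Capitals mark CCAAT and TTTGAA, each searched on both strands.
Ccnb2: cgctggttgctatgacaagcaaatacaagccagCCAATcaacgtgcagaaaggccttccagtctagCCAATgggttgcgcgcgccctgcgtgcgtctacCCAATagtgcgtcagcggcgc
Cdc20: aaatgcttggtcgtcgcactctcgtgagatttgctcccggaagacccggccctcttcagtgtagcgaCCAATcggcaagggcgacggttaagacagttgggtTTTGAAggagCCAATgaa
Within 250 bases before the start, CCAAT was present for 21 of the 25 list members with a promoter entry (84%), beside 40.3% of 11687 tested genes with one. The CHR letters TTTGAA were present for 9 of 25 (36%), beside 12.9%. The bases shown for Ccnb2 hold no TTTGAA. These letters did not separate the calls, being present for Ccnb2, which was called, and Cdk1, which was not. They were absent for Ccnb1, which was called, and Cdc25b, which was not. A match is a description of the letters and does not show a bound factor.

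The products of these genes drive entry into and exit from mitosis. Ccnb2, a B-type cyclin, measured 40.6, 41.4 and 38.2 CPM (WT), 25.9, 24.6 and 22.5 CPM (Blm KO), 15.2, 17.4 and 22.1 CPM (labelled Recql KO) and 32.1, 43.5 and 23.8 CPM (labelled double KO). Blm KO and Recql KO were each below WT without overlap, the double KO libraries spanned from the Blm KO level to above WT, and none of them lay as low as the 11.1 CPM that adding the single effects predicts. The interaction of Ccnb2 was 1.58 ± 0.28 (log2, SE; edgeR adjusted p = 0.00921). Cdc20, the activator of the anaphase-promoting complex, measured 52.8, 75.9 and 69 CPM (WT), 39.7, 39.8 and 37 CPM (Blm KO), 24, 29.2 and 35 CPM (labelled Recql KO) and 48.9, 61.3 and 39.2 CPM (labelled double KO), with an interaction of 1.52 ± 0.26 (log2, SE; edgeR adjusted p = 0.00876). Plk1, the polo kinase of mitosis, had 1.65 ± 0.30 (log2, SE; edgeR adjusted p = 0.0109), Kif20a, a kinesin of cytokinesis, had 1.44 ± 0.25 (log2, SE; edgeR adjusted p = 0.00849), and Cdc25c, the phosphatase that activates CDK1, had 1.64 ± 0.29 (log2, SE; edgeR adjusted p = 0.00934).

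Between WT and Recql KO 24 of the 32 fell, with a median of -0.80. Between WT and Blm KO edgeR called 0 of the 32 after adjustment and 31 at an unadjusted p under 0.05, DESeq2 called 23, and the median was -0.73. Between double KO and WT edgeR called 0 with and without adjustment, with a median of -0.26. As a mean over the list relative to WT, the double KO libraries 1, 2 and 3 lay at -0.33, 0.17 and -0.70 on the log2 scale, the Blm KO libraries at -0.51, -0.76 and -0.80 and those labelled Recql KO at -1.05, -0.82 and -0.58. Double KO library 3 thus stood inside the range of both single KO groups. The count of 25 fell to 7 without Blm KO library 3, to 11 without WT library 2 or Recql KO library 2, to 13 without Recql KO library 1 and to 8 with the Y-linked covariate, and to 0 in the 6 libraries with high Y-linked levels, while the median stayed between 0.95 and 1.75 under every alternative run.

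Chaperones of the endoplasmic reticulum (ER) were called mostly above additivity. Of 19 measured, 8 were called positive and 1, Dnajb9, negative (47.4%), and the median was 0.39. Promoters of Hspa5 and Pdia6 are shown because they hold the ER stress response element, known to be bound by NF-Y and ATF6, which is CCAAT and CCACG with 9 bases between them. They are again the 120 bases up to the transcript start, from RefSeq on GRCm38.p6, with Hspa5 at chr2:34771970-34772089 and Pdia6 at chr12:17266469-17266588, both on the plus strand. Capitals mark the element, which was searched on both strands and by its letters contains a CCAAT box.
Hspa5: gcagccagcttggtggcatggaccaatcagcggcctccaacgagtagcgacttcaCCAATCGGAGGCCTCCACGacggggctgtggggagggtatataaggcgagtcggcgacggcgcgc
Pdia6: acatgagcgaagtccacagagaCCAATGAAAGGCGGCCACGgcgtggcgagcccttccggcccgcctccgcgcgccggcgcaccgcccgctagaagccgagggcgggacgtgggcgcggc
The element was present for 8 of the 17 members with a promoter entry (47.1%), beside 0.171% of 11687 tested genes with one, in the 250 bases before the start. It did not separate the calls, being present for Hspa5, which was called, and Canx, which was not. It was absent for Xbp1, which was called, and Pdia4, which was not. Here too a match does not show a bound factor.

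Hspa5, the chaperone BiP, measured 1568, 1633 and 1763 CPM (WT), 1213, 1310.00 and 1300.00 CPM (Blm KO), 1061, 1018 and 913 CPM (labelled Recql KO) and 1380.00, 1537 and 1292 CPM (labelled double KO). Each single KO lay below WT without overlap, and the double KO libraries lay below every WT library and above every library labelled Recql KO, overlapping with Blm KO. The interaction was 0.87 ± 0.13 (log2, SE; edgeR adjusted p = 0.00578). Pdia6, a protein disulfide isomerase, had 0.80 ± 0.12 (log2, SE; edgeR adjusted p = 0.00561), Xbp1, a transcription factor of the unfolded protein response, had 0.71 ± 0.11 (log2, SE; edgeR adjusted p = 0.00578), and Creld2, an ER stress-induced protein, had 0.62 ± 0.11 (log2, SE; edgeR adjusted p = 0.0102). There were 5 positive calls and no negative one without WT library 2, Blm KO library 3, Recql KO library 2 or double KO library 2.

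Genes of replication, repair and cohesion, the processes named in the study's title, held few calls. Of 40 DNA replication and S phase genes 2 were positive and 1 negative (7.5%). Their median was 0.38, close to that of the ER chaperones, and 34 of the 40 had a value above 0. The negative one was E2f1, a transcription factor that starts S phase, at -0.62 ± 0.13 (log2, SE; edgeR adjusted p = 0.0155). Among 32 genes of homologous recombination and the Fanconi anemia pathway 1 was called (3.12%), with a median of 0.29. Among 17 replication checkpoint genes 1 was positive and 1 negative (11.8%), with a median of 0.18. Among 22 genes of chromatid cohesion 2 were positive (9.09%), with a median of 0.32, and among 14 RecQ helicases and their partners 1, Parp1, was positive (7.14%). Except for E2f1, the called members of these lists lost their call in at least 6 of the 12 fits that leave out a library, and the lists held 0 positive calls without WT library 2 and 0 without Blm KO library 3. These shares are all close to or below the 10.4% of all genes. DESeq2 called 6 replication, 3 recombination, 2 checkpoint, 5 cohesion and 2 RecQ genes.

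Rad21, the cohesin subunit that closes the ring, shows the size involved. It measured 257, 244 and 237 CPM (WT), 224, 183 and 194 CPM (Blm KO), 161, 174 and 178 CPM (labelled Recql KO) and 213, 241 and 185 CPM (labelled double KO). The libraries labelled Recql KO were the 3 lowest, and the interaction was 0.61 ± 0.15 (log2, SE; edgeR adjusted p = 0.028). The call was lost without any WT library, any Recql KO library, Blm KO library 2 or Blm KO library 3, with values from 0.51 to 0.70. Parp1, the poly(ADP-ribose) polymerase that binds DNA breaks, had an interaction of 0.61 ± 0.15 (log2, SE; edgeR adjusted p = 0.0293), lost without WT library 2, Blm KO library 2, Blm KO library 3 or any library labelled Recql KO, with values from 0.50 to 0.68.

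**Figure D4:**
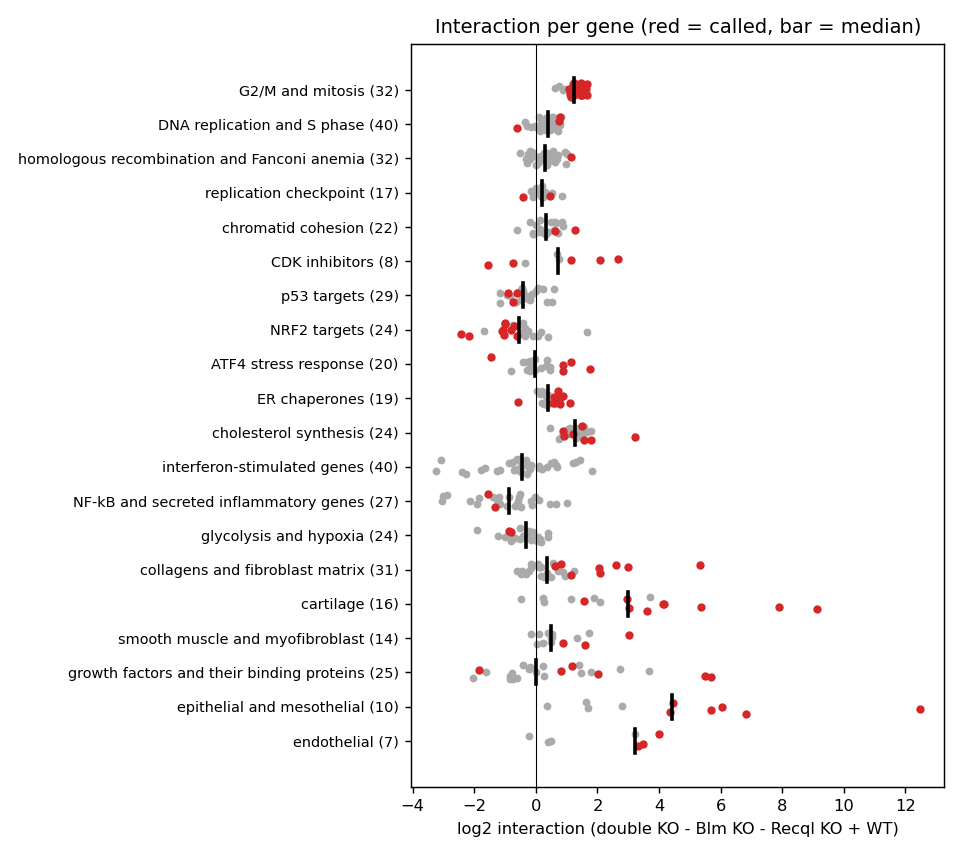
Each point is the log2 interaction of 1 gene in the list named at the left, with the number of tested members in brackets, red where called and grey where not, and a black bar at the list's median. G2/M genes lie wholly above 0 with a median of 1.24, NRF2 targets lie mostly below 0 with a median of -0.54, and DNA replication genes have a median of 0.38 with 34 of 40 above 0.

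Interferon-stimulated genes, the antiviral programme that cytosolic DNA can switch on, gave no call in the main test although they differed in the single effect. Between WT and Recql KO 23 of 40 rose, with a median of 2.23. Between Blm KO and double KO edgeR called 0 of the 40, with 20 at an unadjusted p under 0.05 and a median of 1.91, and DESeq2 called 9. The interaction was called for 0 of 40 in edgeR, with 5 at an unadjusted p under 0.05, for 1 in DESeq2 and for 0 in limma-voom, with a median of -0.45. One library decides this. As a list mean relative to WT, double KO library 1 stood at 2.05 on the log2 scale, inside the 2.01 to 2.52 of the libraries labelled Recql KO, while double KO libraries 2 and 3 stood at -0.45 and -0.87. In the fit without double KO library 1 the interaction was called for 22 of 40, all negative, with a median of -2.05. Rsad2, the antiviral enzyme viperin, was picked after its values were seen. It measured 1.72, 0.795 and 0.322 CPM (WT), 0.644, 0.264 and 0.187 CPM (Blm KO), 19.7, 26.7 and 43.8 CPM (labelled Recql KO) and 3.36, 0.597 and 0.219 CPM (labelled double KO). Its interaction was -3.07 ± 1.27 (log2, SE; edgeR adjusted p = 0.145). Rsad2 is not typical of the list, whose interactions ran from -3.26 to 1.82. In double KO library 1 it lay below every library labelled Recql KO, unlike the list mean.

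**Figure D5:**
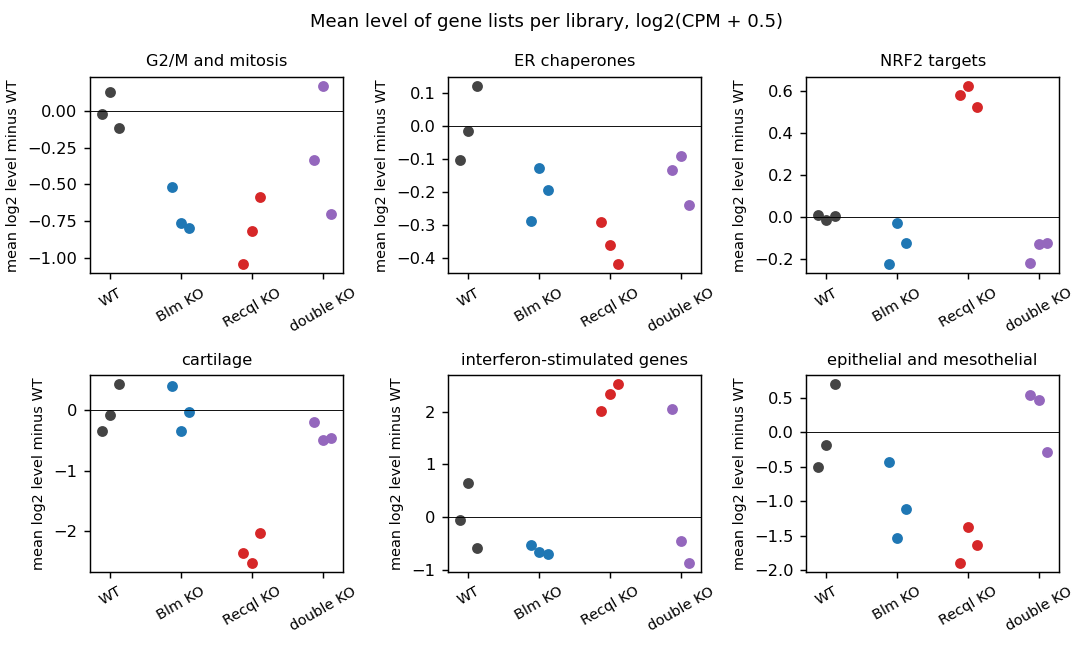
Points give the mean level of 6 gene lists in each library as log2(CPM + 0.5), relative to the WT mean, with the libraries grouped by label. NRF2 targets are high in the 3 libraries labelled Recql KO alone, while interferon-stimulated genes are high there and in 1 of the 3 double KO libraries, at 2.05.

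Markers of cell types other than fibroblasts also moved with the interaction. Of 10 tested epithelial and mesothelial markers 6 were called, all positive (60%), with a median of 4.41, and without Blm KO library 3 the count was 2. Their summed level was 43.6 to 136 CPM in WT, 30.3 to 47.7 in Blm KO, 12.2 to 21.1 in Recql KO and 74.2 to 115 in double KO. Msln, mesothelin of the linings of body cavities, measured 5.69, 16.7 and 40.9 CPM (WT), 11.9, 7.89 and 9.88 CPM (Blm KO), 0.574, 1.26 and 1.54 CPM (labelled Recql KO) and 28.8, 32.1 and 20.1 CPM (labelled double KO). All libraries labelled Recql KO were below every other library, the double KO overlapped with WT, and the interaction was 5.68 ± 0.85 (log2, SE; edgeR adjusted p = 0.00574). Krt18, a keratin of simple epithelia, had 4.46 ± 0.85 (log2, SE; edgeR adjusted p = 0.0133). Krt14, a keratin of stratified epithelia, was at 0 counts in all 3 libraries labelled Recql KO. Endothelial markers summed to 16.2 to 24.4 CPM in WT, 6.71 to 14.3 in Blm KO, 5.95 to 7.86 in Recql KO and 13.4 to 18 in double KO. Of 7 tested 3 were called, all positive (42.9%, beside 10.4% of all genes). Only 1 call was left without WT library 3, double KO library 2, Blm KO library 2, Blm KO library 3 or any library labelled Recql KO. Skeletal muscle markers summed to 44.9 to 63.8 CPM in WT, 26.8 to 48.9 in Blm KO, 10.7 to 24.9 in Recql KO and 56.8 to 154 in double KO, with a median interaction of 2.14 over 6. Of these only Des, desmin of muscle filaments, which makes up most of the sum, was called (16.7%), and not without Blm KO library 3. Myod1, Myog, Myf5 and Pax7, which define that lineage, had too few counts to be tested. Of 7 osteoblast markers 2 were called, both positive (28.6%). Neither passed with the Y-linked covariate or without any WT library, Blm KO library 2, Blm KO library 3, Recql KO library 2 or Recql KO library 3. Of 11 neural markers edgeR called 0, with 3 at an unadjusted p under 0.05, limma-voom 0 and DESeq2 1, and the median was 0.28. Macrophage and blood markers summed to between 3.85 and 16.9 CPM in every group. Of the 7 tested 0 were called, but all 7 had a value above 0, with a median of 3.75, and up to 3 were called with 1 library left out. Of 5 adipocyte markers only Cd36 was called, positive (20%), and not without Blm KO library 3 or Recql KO library 2. The median of the 5 was 0.11. Fibroblast markers summed to 29000 to 31400 in WT, 42800 to 44400 in Blm KO, 20700 to 25500 in Recql KO and 37200 to 43200 in double KO. The part of these cell types in the matrix, cartilage and growth factor results was not tested.

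In 156 called genes it was the double KO that stood apart, higher in 93 and lower in 63. Heyl, a transcriptional repressor of the Notch pathway, at chr4:123233556-123249870, measured 0.832, 3.03 and 0.777 CPM (WT), 0.491, 0.721 and 0.222 CPM (Blm KO), 0.0741, 0.155 and 0.143 CPM (labelled Recql KO) and 5.09, 10.5 and 5.06 CPM (labelled double KO). The double KO libraries were the 3 highest and those labelled Recql KO the 3 lowest. Heyl rose between Blm KO and double KO (log2 3.84 ± 0.63, edgeR adjusted p = 0.0202) and fell between WT and Recql KO (log2 -3.62 ± 0.70, edgeR adjusted p = 0.00437). The rise was not called without Blm KO library 3 or double KO library 2, with adjusted p up to 0.117. Its interaction was 7.46 ± 0.94 (log2, SE; edgeR adjusted p = 0.00365). Dpp4, a cell surface peptidase, had means of 3.43, 1.71, 0.573 and 8.43 CPM and an interaction of 4.88 ± 0.92 (log2, SE; edgeR adjusted p = 0.0127).

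Of the 63 called genes lowest in the double KO, 3 are described. Nrn1, neuritin, measured 76.3, 78.5 and 122 CPM (WT), 79.2, 103 and 175 CPM (Blm KO), 120.4, 212 and 262 CPM (labelled Recql KO) and 46, 32.6 and 36.2 CPM (labelled double KO). The double KO libraries were all below every other library, and the interaction was -2.74 ± 0.48 (log2, SE; edgeR adjusted p = 0.0097). Penk, the precursor of the enkephalins, measured 22.2, 9.32 and 29.6 CPM (WT), 59.1, 24.8 and 65.9 CPM (Blm KO), 19.9, 17.9 and 32.3 CPM (labelled Recql KO) and 7.41, 4.27 and 3.16 CPM (labelled double KO), and its interaction was -3.53 ± 0.70 (log2, SE; edgeR adjusted p = 0.0145). Again the double KO libraries were the 3 lowest, with Blm KO the highest on average. Kcnq5, a voltage-gated potassium channel, had means of 9.21, 19.7, 18.6 and 6.86 CPM and an interaction of -2.54 ± 0.40 (log2, SE; edgeR adjusted p = 0.00647).

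Blm KO stood apart in 106 called genes and WT in 146. Mttp, which loads lipid onto lipoproteins, is of the first kind and measured 6.49, 6.05 and 6.84 CPM (WT), 10.2, 11.8 and 12.7 CPM (Blm KO), 9.88, 8.28 and 9.13 CPM (labelled Recql KO) and 6.9, 4.23 and 7.47 CPM (labelled double KO). The Blm KO libraries were the 3 highest, those labelled Recql KO lay next, and the double KO overlapped with WT. The interaction of Mttp was -1.39 ± 0.26 (log2, SE; edgeR adjusted p = 0.013). Gpr137b, a lysosomal membrane protein, is of the second kind and measured 14.3, 16.5 and 13 CPM (WT), 31.1, 51 and 44.4 CPM (Blm KO), 32.8, 53.4 and 56.4 CPM (labelled Recql KO) and 29.4, 30.3 and 29.3 CPM (labelled double KO). WT was the lowest group, and the double KO lay below 137 CPM, the level that adding the 2 single rises predicts, by a factor of 4.62, with an interaction of -2.21 ± 0.30 (log2, SE; edgeR adjusted p = 0.00443). Bmpr1b, a receptor for bone morphogenetic proteins, had -1.38 ± 0.27 (log2, SE; edgeR adjusted p = 0.0133), and Ugt1a6b, a glucuronosyltransferase, had -2.97 ± 0.61 (log2, SE; edgeR adjusted p = 0.017). Ugt1a6b shares its last exons with its neighbours, so its own level is uncertain. Syt17, a synaptotagmin, is of neither kind, since Recql KO stood apart in it. It had means of 1.92, 4.58, 22.7 and 3.65 CPM and an interaction of -3.89 ± 0.32 (log2, SE; edgeR adjusted p = 0.000908).

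Genes close to the targeted loci were called at shares near the 10.4% of all genes. Within 10 Mb of Blm 14 of 101 tested genes were called (13.9%), 9 positive and 5 negative, with a median of 0.03. Within 10 Mb of Recql 11 of 87 were called (12.6%), 7 positive and 4 negative, with a median of 0.07. Near Blm, Idh2, the mitochondrial isocitrate dehydrogenase, had an interaction of 1.36 ± 0.22 (log2, SE; edgeR adjusted p = 0.00695) and Sytl2, a vesicle trafficking protein, had -1.10 ± 0.20 (log2, SE; edgeR adjusted p = 0.0114). Near Recql, Abcc9, a subunit of ATP-sensitive potassium channels, had 3.88 ± 0.65 (log2, SE; edgeR adjusted p = 0.00758), Itpr2, a calcium release channel, had -1.51 ± 0.25 (log2, SE; edgeR adjusted p = 0.0072), and Cdkn1b, described above, also lies there. The lowest counts when 1 library was left out were 4 near Blm, without Recql KO library 2, and 4 near Recql, without Blm KO library 3.

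The remaining lists gave smaller or less stable counts. Of 24 cholesterol synthesis genes 7 were called positive (29.2%), with a median of 1.28, and DESeq2 called 16, but none was called without WT library 1, WT library 2, Blm KO library 3 or any library labelled Recql KO, and 17 were called without double KO library 1. Without WT library 3 the count was 3, and without Blm KO library 1 it was 4. Of 20 genes of the ATF4 stress response 4 were positive and 1 negative (25%), with a median of -0.03. Psat1, a serine synthesis enzyme, had an interaction of 1.14 ± 0.19 (log2, SE; edgeR adjusted p = 0.00714), and Ddit3, the stress factor CHOP, had -1.45 ± 0.27 (log2, SE; edgeR adjusted p = 0.0123). In glycolysis and hypoxia 2 of 24 were called, both negative (8.33%, below the 10.4% of all genes). Among them was Hk1, a hexokinase, at -0.87 ± 0.14 (log2, SE; edgeR adjusted p = 0.00731). Among 43 Hox and regional identity factors 2 were positive and 1 negative (6.98%, also below the share of all genes). Of 14 smooth muscle and myofibroblast genes 3 were positive (21.4%), among them Smtn, smoothelin of contractile fibres, at 0.88 ± 0.15 (log2, SE; edgeR adjusted p = 0.00834).

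Additivity depends on the scale. On linear CPM, where the effects of the 2 knockouts are added rather than multiplied, 1549 of the 1554 called genes (99.7%) had the same sign and 5 the opposite one. Erg, an endothelial and cartilage transcription factor, is 1 of the 5. It measured 12.9, 7.95 and 10.5 CPM (WT), 38, 11.9 and 28.4 CPM (Blm KO), 0.0556, 0.103 and 0.287 CPM (labelled Recql KO) and 5.64, 5.02 and 9.08 CPM (labelled double KO). Among the double KO libraries 1 exceeded the lowest WT library, and all lay above those labelled Recql KO. Under every library left out and with the Y-linked covariate Erg kept its call, but limma-voom gave an adjusted p of 0.0798. The sign turned with the scale, so that the interaction was 4.17 ± 0.73 (log2, SE; edgeR adjusted p = 0.0097) on the log2 scale but -9.25 CPM on the linear one.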

How the data were processed

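Polyadenylated RNA of 12 libraries was measured, 3 per genotype. The kit was KAPA Stranded mRNA, per the labels' protocols. Per the submitters' processing notes, Bowtie2 2.1.0, RSEM 1.2.15 and genome build mm10 were used. The authors deposited expected counts per gene, RSEM's estimated counts, which need not be whole. No annotation version, strand setting or read filter is given in the sources used here, so reads of a gene and an overlapping antisense partner may be mixed.

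Expected counts were rounded and tested in R 4.3.3 with edgeR 4.0.16. Its filter by group left 14876 genes with 99.99% of the counts, and TMM scaling was applied. A model with 1 mean per genotype over all 12 libraries left 8 residual degrees of freedom, and the common biological coefficient of variation was 0.209. Each contrast had a robust quasi-likelihood F test with Benjamini-Hochberg adjustment over all 14876 genes, called under 0.05. Levels are TMM-scaled CPM. The additive expectation is the Blm KO mean times the Recql KO mean over the WT mean. Positions came from the mm10 annotation for 14810 genes (99.6%), and promoters from RefSeq. Library pairs within a genotype differed by more than sampling noise. On counts simulated for the interaction over 14727 genes, 49% of 2-fold and 87% of 4-fold changes were recovered, and 9 of 145 calls were false. The simulated counts were drawn independently per gene and library, without the Y-linked differences between libraries of a genotype. These rates therefore do not carry over to the calls in the data.

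The members and the gene lists were chosen with earlier results of these data known. Named genes are Blm, Recql, Cdkn1a, Trp53 and Cdkn2a. Added to these were called genes of at least 1 CPM with all double KO libraries on 1 side of the expectation, namely the 12 highest and 12 lowest interactions and up to 6 of each among genes where double KO, Blm KO or WT stood apart, and up to 4 called members per list by adjusted p. A subset is printed, picked after the values were seen. Alternatives were RLE scaling, other filters, DESeq2 1.42.0, limma-voom 3.58.1, the replicate number as a block, thinning to the smallest total, the mean log2 level of 4 Y-linked genes as a covariate, the 6 libraries above 100 CPM of their sum, and leaving out each library.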

Additional observations from a re-analysis of the deposited data

Results flagged for a closer look

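The effect of 1 label differed with the state of the other locus for 1554 genes, which is the interaction test itself. The cases below are those in which both effects of 1 label were called and pointed in opposite directions, which held for 31 genes for the Recql label and 5 for the Blm label. These counts rest on single libraries. With 1 library left out they ran from 1 to 55 and from 0 to 36, in the 6 libraries with high Y-linked levels both were 0, and DESeq2 gave 125 and 112. The Recql label count was 1 without Blm KO library 3 or double KO library 2.

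Among printed genes, Heyl, with an interaction of 7.46, fell by 3.62 on the log2 scale from WT to Recql KO (edgeR adjusted p = 0.00437) and rose by 3.84 from Blm KO to double KO (edgeR adjusted p = 0.0202). Emcn, an endothelial sialomucin, with an interaction of 3.48, fell by 1.46 (edgeR adjusted p = 0.0133) and rose by 2.03 (edgeR adjusted p = 0.0286) over the same steps. It measured 1.07, 1.5 and 1.57 CPM (WT), 0.339, 0.58 and 0.256 CPM (Blm KO), 0.371, 0.74 and 0.389 CPM (labelled Recql KO) and 1.62, 1.86 and 1.31 CPM (labelled double KO), so that both single KO groups lay below WT and double KO.

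Nrn1, with an interaction of -2.74, rose by 1.11 from WT to Recql KO (edgeR adjusted p = 0.0324) and fell by 1.64 from Blm KO to double KO (edgeR adjusted p = 0.0419). Kcnq5, with an interaction of -2.54, rose by 1.02 (edgeR adjusted p = 0.0205) and fell by 1.52 (edgeR adjusted p = 0.0299).

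For the Blm label, Gpr137b, with an interaction of -2.21, rose by 1.53 from WT to Blm KO (edgeR adjusted p = 0.0104) and fell by 0.68 from Recql KO to double KO (edgeR adjusted p = 0.0397). Syt17, with an interaction of -3.89, rose by 1.26 (edgeR adjusted p = 0.0394) and fell by 2.64 (edgeR adjusted p = 0.000114).

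With 1 library left out, the step from Blm KO to double KO was called in 10 of 12 fits for Heyl, 8 for Emcn, 7 for Kcnq5 and 5 for Nrn1, and in none of these genes without Blm KO library 3 or without double KO library 2. The step from WT to Recql KO was called in 12, 11, 8 and 8 of the 12. From WT to Blm KO, Gpr137b was called in 9 fits and Syt17 in 4, and from Recql KO to double KO in 5 and 12. The interaction of each of these genes was called in all 12.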

How the results depend on the processing

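The 1554 interaction calls became 2616 with DESeq2, 820 with the Y-linked covariate and 5 in the 6 libraries with high Y-linked levels (2074 at an unadjusted p under 0.05), where the lone library of a genotype is assumed to vary like the others. Leaving out 1 library gave 549 to 1836, and other scaling, filters, limma-voom and thinning gave 1201 to 1555. From WT to Recql KO the count of 4444 was 1128 in the high Y-linked libraries and 2692 to 4964 with 1 library left out. From Blm KO to double KO 291 became 1404 with DESeq2, 0 in the high Y-linked libraries (2695 at an unadjusted edgeR p under 0.05) and 9 to 585 with 1 library left out. From WT to Blm KO 112 became 947 with DESeq2, 43 with the Y-linked covariate, 2 in the high Y-linked libraries and 31 to 572 with 1 library left out. From Recql KO to double KO 3681 became 373 in the high Y-linked libraries and 2157 to 3875 with 1 library left out. A fit of low Y-linked libraries was not possible, because no WT library was among them. Replicate numbers did not pair the samples. Same-numbered libraries correlated at -0.168 to 0.227, 5 of 18 pairs were above 0.1 and 4 of 12 libraries correlated best with their own number. With the replicate block the counts were 1615 for the interaction (1335 shared with the 1554), 4689 from WT to Recql KO, 762 from Blm KO to double KO, 120 from WT to Blm KO and 3893 from Recql KO to double KO. Trp53, which was not called, had an interaction of 0.03 that ranged from -0.027 to 0.071 with 1 library left out and was -0.28 CPM on the linear scale. It was -0.011 without WT library 1, -0.001 without WT library 2, -0.009 without Blm KO library 2, -0.027 without Recql KO library 1 and -0.025 without double KO library 2. Erg turned to -9.25 CPM on the linear scale. The cause of these shifts was not tested. Depth limits genes near 0.0506 to 0.0628 CPM, where a count of 0 and low expression cannot be told apart.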
